A study of Mus musculus with 60 samples.

Results

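Whole blood of mice given BIO 300 at 200 mg/kg was compared directly with whole blood of mice given 50 mg/kg, both sampled on Day 0 without irradiation. The comparison holds 12 of the 60 mice sequenced, chosen by their labels: animals 19 to 24 carry the label of the high dose and animals 1 to 6 that of the low dose. BIO 300 is an oral powder of synthetic genistein, a plant isoflavone that binds estrogen receptors, and doses are given as genistein per body weight. All 12 were male CD2F1 mice, bought at 5 to 6 weeks of age, with no genetic modification given. They were dosed by mouth in the morning and evening for 6 days, 12 doses in all, and each was bled once, 24 h after the last dose. The 2 groups differ in dose alone as labelled, and both received the vehicle that carries the drug. Vehicle alone and 100 mg/kg on Day 0, with 6 mice each, appear below only to place both doses. The question was how far the blood transcriptome of the highest dose stood from that of the lowest, since the study set each dose against vehicle. Mice were housed 3 to a cage, and the labels give no cage, date or batch, so dose and any shared handling of a group cannot be told apart.

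Between 16962659 and 27313064 reads were counted on genes per low-dose mouse, and between 22348126 and 28505535 per high-dose mouse, so depth was alike apart from animal 4, the lowest. The blood label was borne out by its markers, with haemoglobin, platelet, B cell, T cell and neutrophil genes counted in all 12 libraries. Hepatocyte genes made up 0.232% of counts in animal 1 (50 mg/kg) and 0.221% in animal 21 (200 mg/kg), against 0.00262% to 0.0211% in the other 10. Adipocyte genes were at most 0.00554% of counts in any mouse. Animal 2 among the low-dose mice and animal 22 among the high-dose mice often had the highest red cell values of their group, and counts are given below with and without them. No library was a copy of another of its dose, the smallest chi-square statistic per gene between a pair being 10.8.

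Whole blood RNA comes from several cell types at once. Reticulocytes, the youngest red cells, have lost their nucleus but keep a dwindling stock of messages for haemoglobin, heme synthesis and membrane proteins, and platelets likewise carry RNA inherited from megakaryocytes. Lymphocytes, monocytes and neutrophils supply most other transcripts, and interferons switch on a set of antiviral genes in nearly all of them. A higher share of one class lowers the share of every other, and in bulk blood fewer cells of a type cannot be told apart from less RNA per cell.

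Of the genes with large differences between both doses, 2 red cell genes (Epb42 and Trim10), the interferon-stimulated gene Isg15 and the apolipoprotein gene Apol11b, which is in no list used here, are shown by their 4 promoters, each the 250 bases before the RefSeq transcript start (GRCm38.p6), written along the gene's strand. Capitals mark AGATAA, the core read by GATA factors, in Epb42 and Trim10, and GAAA, any 2 bases and GAAA, the core of the interferon-stimulated response element, in Isg15 and Apol11b. Both strands were searched, so TTATCT in Epb42 and Trim10 and the TTTC pair in Apol11b are the same motifs read in reverse.
Epb42, chr2:121036878-121037127, minus strand: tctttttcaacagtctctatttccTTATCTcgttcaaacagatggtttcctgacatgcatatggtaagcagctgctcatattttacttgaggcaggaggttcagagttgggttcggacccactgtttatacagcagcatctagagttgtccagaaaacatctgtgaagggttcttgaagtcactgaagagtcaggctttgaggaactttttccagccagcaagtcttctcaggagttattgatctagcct
Trim10, chr17:36869324-36869573, plus strand: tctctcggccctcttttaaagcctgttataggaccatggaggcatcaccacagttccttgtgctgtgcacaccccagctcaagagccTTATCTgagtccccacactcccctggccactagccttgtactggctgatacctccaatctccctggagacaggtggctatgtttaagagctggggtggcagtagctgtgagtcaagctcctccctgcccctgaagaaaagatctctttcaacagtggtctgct
Isg15, chr4:156200819-156201068, minus strand: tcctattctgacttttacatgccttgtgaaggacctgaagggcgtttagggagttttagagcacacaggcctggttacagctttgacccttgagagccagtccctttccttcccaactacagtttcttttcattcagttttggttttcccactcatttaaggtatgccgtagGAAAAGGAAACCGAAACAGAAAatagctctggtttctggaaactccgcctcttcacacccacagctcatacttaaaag
Apol11b, chr15:77643287-77643536, minus strand: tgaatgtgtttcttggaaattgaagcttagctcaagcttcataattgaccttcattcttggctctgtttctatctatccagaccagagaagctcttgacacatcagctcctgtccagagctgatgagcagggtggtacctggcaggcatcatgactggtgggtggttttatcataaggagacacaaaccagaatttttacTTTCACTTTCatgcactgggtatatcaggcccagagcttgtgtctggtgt
In Isg15 the capitals cover 3 overlapping matches that begin 78, 72 and 66 bases before the start. AGATAA was present in 19.4% of 36 promoters of the red cell lists (29 of their 45 genes matched), against 9.99% of all 32851 promoters of this length. The interferon motif was present in 53.3% of 15 promoters of the interferon list (14 of 20 genes matched), against 2.98% of all promoters. The 12 higher genes named below for the largest differences (8 matched) had 10 promoters, of which 10% held AGATAA and 30% the interferon motif. For Epb42 the RefSeq start lies within the gene coordinates given below, so part of its window is inside the gene as annotated there. These matches describe the letters alone, and binding was not measured.

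edgeR's quasi-likelihood test called 2069 of 24147 genes tested as differentially expressed genes (DEGs), 8.57%, and they lay almost wholly on one side. To be called, a gene needed an adjusted p (Benjamini-Hochberg) below 0.05 together with a more than 2-fold change, a log2 fold change beyond 1 in size. Of these, 1993 were higher at 200 mg/kg (8.25% of genes tested) and 76 were lower (0.315%). By adjusted p at any size the sides were nearly even, 3503 genes higher (14.5%) and 3365 lower (13.9%). With the scaling of this fit (TMM, see the next paragraph), large differences were therefore mostly upward, and the downward ones were mostly small. The 76 lower DEGs were scarce transcripts, with a median of the 50 mg/kg means of 0.22 CPM (counts scaled to the library) and a largest of 2.56, whereas higher DEGs had a median of 14.7 CPM at 200 mg/kg. Of the higher DEGs, 1006 reached a mean of 10 CPM in 1 group without overlap between the doses, and 0 of the lower DEGs did. Over all genes tested, 2356 did not overlap in the upward direction (9.76%) and 1546 in the downward (6.4%). DESeq2 called 2178 higher and 39 lower.

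Which genes stood still depended on the scaling. TMM scaling, used for all CPM values here unless stated, sets the bulk of genes near 0, and the median log2 fold change over all genes was -0.07. Its factors were 1.09 to 1.54 for the low dose and 0.475 to 0.931 for the high dose, with no overlap. With libraries scaled by their total counts, 0 shifted by 0.91, the median became -0.98, and 394 genes were higher (1.63%) against 10205 lower (42.3%). Under both scalings 392 genes were DEGs on the higher side (1.62%) and 76 on the lower (0.315%). Each log2 fold change below is on the TMM scale unless stated. Of 104 single genes followed under every setting, nearly all of them named below, 75 were DEGs with TMM, and total counts removed 39 of these calls and added 22, so the calls under total counts are given list by list. In the plot of all genes, the dotted line shows where total counts would set 0.

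**Figure D1:**
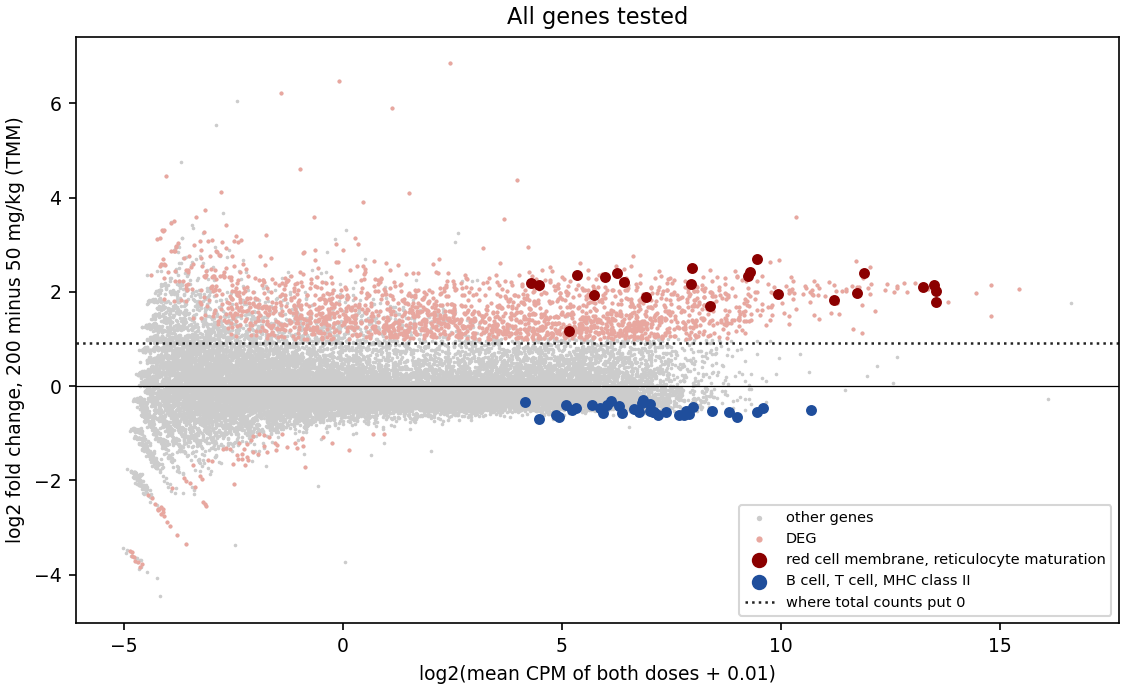
Each point is 1 of 24147 genes, with log2 of the mean CPM over both doses plus 0.01 on the x axis and the log2 fold change (200 minus 50 mg/kg, TMM) on the y axis. Red cell membrane and reticulocyte maturation genes (dark red) lie above 1, B cell, T cell and MHC class II genes (blue) lie below 0, and the dotted line at 0.91 marks 0 under total counts.

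The make-up of the libraries differed as shares of counts, which need no scaling factor. Haemoglobin genes took 11.4% ± 1.23 (SD, n = 6) of counts at 200 mg/kg and 6.38% ± 2.81 at 50 mg/kg, with an exact 2-sided permutation p of 0.0108 (0.0126 after adjustment over the 7 quantities compared), although the ranges overlapped. The 10 genes with most counts over the 12 mice took 34.5% ± 1.5 against 26.7% ± 2.49, without overlap (exact permutation p = 0.00216, the smallest that 924 regroupings allow, adjusted p = 0.00758). Cytosolic ribosomal protein genes took less at the higher dose, 1.25% ± 0.153 against 2.13% ± 0.241, also without overlap (exact permutation p = 0.00216, adjusted p = 0.00758). Fewer genes reached 10 counts at 200 mg/kg, 15452 ± 631 against 17085 ± 864 (exact permutation p = 0.00649, adjusted p = 0.00909). Mitochondrially encoded genes took 0.459% ± 0.119 and 0.467% ± 0.0696 of counts, a difference within the spread of the mice (exact permutation p = 0.903).

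**Figure D2:**
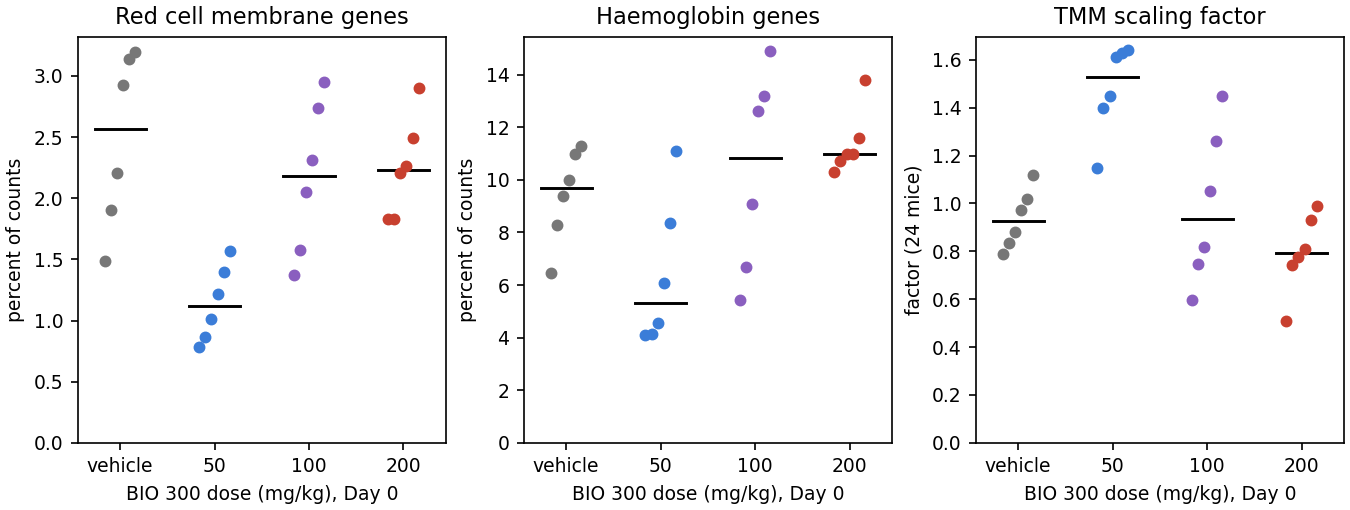
Points are single mice, 6 per Day 0 group and ordered by value, with the percent of counts on red cell membrane genes (left), the percent on haemoglobin genes (middle) and the TMM factor from all 24 Day 0 mice (right), and lines mark medians. The membrane share ran from 0.786% to 1.57% at 50 mg/kg and from 1.83% to 2.9% at 200 mg/kg, without overlap.

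Red cell genes were the group with the largest differences. All 14 genes of the red cell membrane and its skeleton were DEGs higher at 200 mg/kg without overlap, with a median log2 fold change of 2.19, and 10 of them remained DEGs under total counts (median 1.24). All 9 genes of reticulocyte maturation were higher as well, with a median of 2.10, and 7 remained under total counts (median 1.15). Over all genes, 8.25% were called higher (1.63% under total counts), 9.76% did not overlap in the upward direction, and the median was -0.07. Epb42 (ENSMUSG00000023216, chromosome 2, 121017891 to 121037072), which encodes protein 4.2 that ties band 3 to the membrane skeleton, ran from 38.3 CPM through a median of 60.2 to 149 CPM at 50 mg/kg. At 200 mg/kg it ran from 288 through 414 to 643 CPM, so the lowest high-dose mouse exceeded the highest low-dose mouse. The log2 fold change was 2.51 (SE 0.31, adjusted p = 0.00028), and 1.60 under total counts. Add2, the beta subunit of the spectrin-binding protein adducin, had values of 16.6 to 47.5 CPM (median 20.1) and 86.4 to 178 CPM (median 128) at the low and high dose, with a log2 fold change of 2.39. Ankyrin, encoded by Ank1, rose by 2.17, from a median of 77.7 to 404 CPM. Rhd, the Rh blood group antigen, rose by 2.16, from a median of 6.9 to 32.6 CPM. Epb41, or protein 4.1, rose by 1.79 from 4710 to 17600 CPM at the median, but its total-count value of 0.82 fell short of the fold threshold.

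Among genes of reticulocyte maturation, Trim10 (ENSMUSG00000073400, chromosome 17, 36869574 to 36877833), a tripartite motif protein of terminal erythroid cells, had the largest difference. It lay between 102 and 410 CPM (median 148) at 50 mg/kg and between 800 and 1750 CPM (median 1140) at 200 mg/kg. The doses did not overlap, even with animal 2 far above the other low-dose mice, and the log2 fold change was 2.70 (SE 0.34, adjusted p = 0.00028). Xpo7, a nuclear transport receptor used in enucleation, rose by 2.34 from a median of 172 to 980 CPM. Trim58, a ubiquitin ligase of late erythroblasts, rose by 2.18 from 5.72 to 31.4 CPM. Slc25a37, the mitoferrin that brings iron into mitochondria, rose by 2.02, and Fbxo7, of a ubiquitin ligase complex, had 1.89 (0.93 under total counts, short of the fold threshold). The carbonic anhydrase gene Car2 and the cathepsin gene Ctsf stood outside these lists but among the 12 largest differences of higher DEGs that reached 10 CPM at either dose without overlap. Car2 values ran from 149 to 560 CPM (median 214) and from 1110 to 2640 CPM (median 1610), a log2 fold change of 2.67. Ctsf values ran from 7.75 to 28.5 CPM (median 8.66) and from 48.7 to 126 CPM (median 61.4), a log2 fold change of 2.61. For both genes animal 2 was the highest of the low-dose mice, and still lay below every high-dose mouse.

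Heme and globin genes moved the same way with wider error. Of 9 heme synthesis genes 6 were DEGs, against 8.25% of all genes called higher, with a median of 1.18. All 9 were higher by adjusted p, against 14.5% of all genes. Under total counts 3 were DEGs, against 1.63% of all genes called higher, and the median was 0.22. Alas2, which starts heme synthesis in erythroid cells, ran from 11300 to 33600 CPM (median 14600) at 50 mg/kg and from 41500 to 131000 CPM (median 65800) at 200 mg/kg. The mice did not overlap, and the log2 fold change of 2.05 had an SE of 0.69 (adjusted p = 0.0383), a call that was lost in 8 of 12 fits without 1 mouse, with adjusted p up to 0.0978. Urod, which acts later in the pathway, rose by 2.10 (adjusted p = 0.00028), and Alad had 1.18 (0.22 under total counts). Of the 4 haemoglobin genes tested 3 were DEGs, against the same 8.25%, with a median of 1.75. Under total counts 0 were DEGs, the median was 0.85 and all 4 were higher by adjusted p. Hbb-bt ran from 1020 to 3360 CPM (median 1330) and from 3990 to 9530 CPM (median 5060), a log2 fold change of 1.73 (SE 0.36, adjusted p = 0.0032). Hba-a1 overlapped between the doses, with 206 to 2310 CPM (median 437) and 1600 to 3830 CPM (median 2380), a log2 fold change of 1.79. Hba-a2 had a log2 fold change of 1.71, and its doses overlapped too. Hbb-bs, the most counted haemoglobin gene here, ran from 25300 to 95400 CPM and from 105000 to 275000 CPM without overlap, yet its log2 fold change of 1.77 had an SE of 0.97 and did not pass the test (adjusted p = 0.206), whereas DESeq2 gave an adjusted p of 2.63e-06. Globin values also pass through a globin depletion step if the study's methods apply to these libraries, and its evenness across mice was not measured. The haemoglobin genes have near-identical copies, so reads may be split between them.

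Regulators of the erythroid programme were higher by smaller amounts. All 7 were DEGs, against 8.25% of all genes called higher, with a median log2 fold change of 1.47. In all 7 the doses did not overlap, against 9.76% of all genes in the upward direction. Under total counts 1 remained a DEG (median 0.50), against 1.63% of all genes called higher. Klf1, the erythroid Krüppel-like factor, was that gene, with 1.49 to 2.77 CPM (median 1.74) at 50 mg/kg and 5.92 to 14.3 CPM (median 7.06) at 200 mg/kg. Its log2 fold change was 2.15 (SE 0.23, adjusted p = 0.00028), and 1.16 under total counts. Gata1, the factor that directs red cell and megakaryocyte genes, ran from 13.9 to 27.4 CPM (median 18.6) and from 35.3 to 95.7 CPM (median 49.2), a log2 fold change of 1.44 that was 0.45 under total counts. Lmo2, Nfe2, Zfpm1 and Tal1 lay between 1.45 and 1.60. Gfi1b, at 1.19, dropped to 0.92 without animal 22.

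Among the genes with most counts, Pabpc1, the poly(A)-binding protein, rose by 2.14 and Tent5c, a cytoplasmic poly(A) polymerase, by 1.98. Ucp2, a mitochondrial carrier, rose by 1.79 (0.83 under total counts, not a DEG), and Ube2l6, the conjugating enzyme for ISG15, by 2.04. Ube2l6 ran from 2830 to 9460 CPM (median 4030) and from 11600 to 36100 CPM (median 17600), with animal 2 highest at the low dose and animal 22 highest at the high dose.

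**Figure D3:**
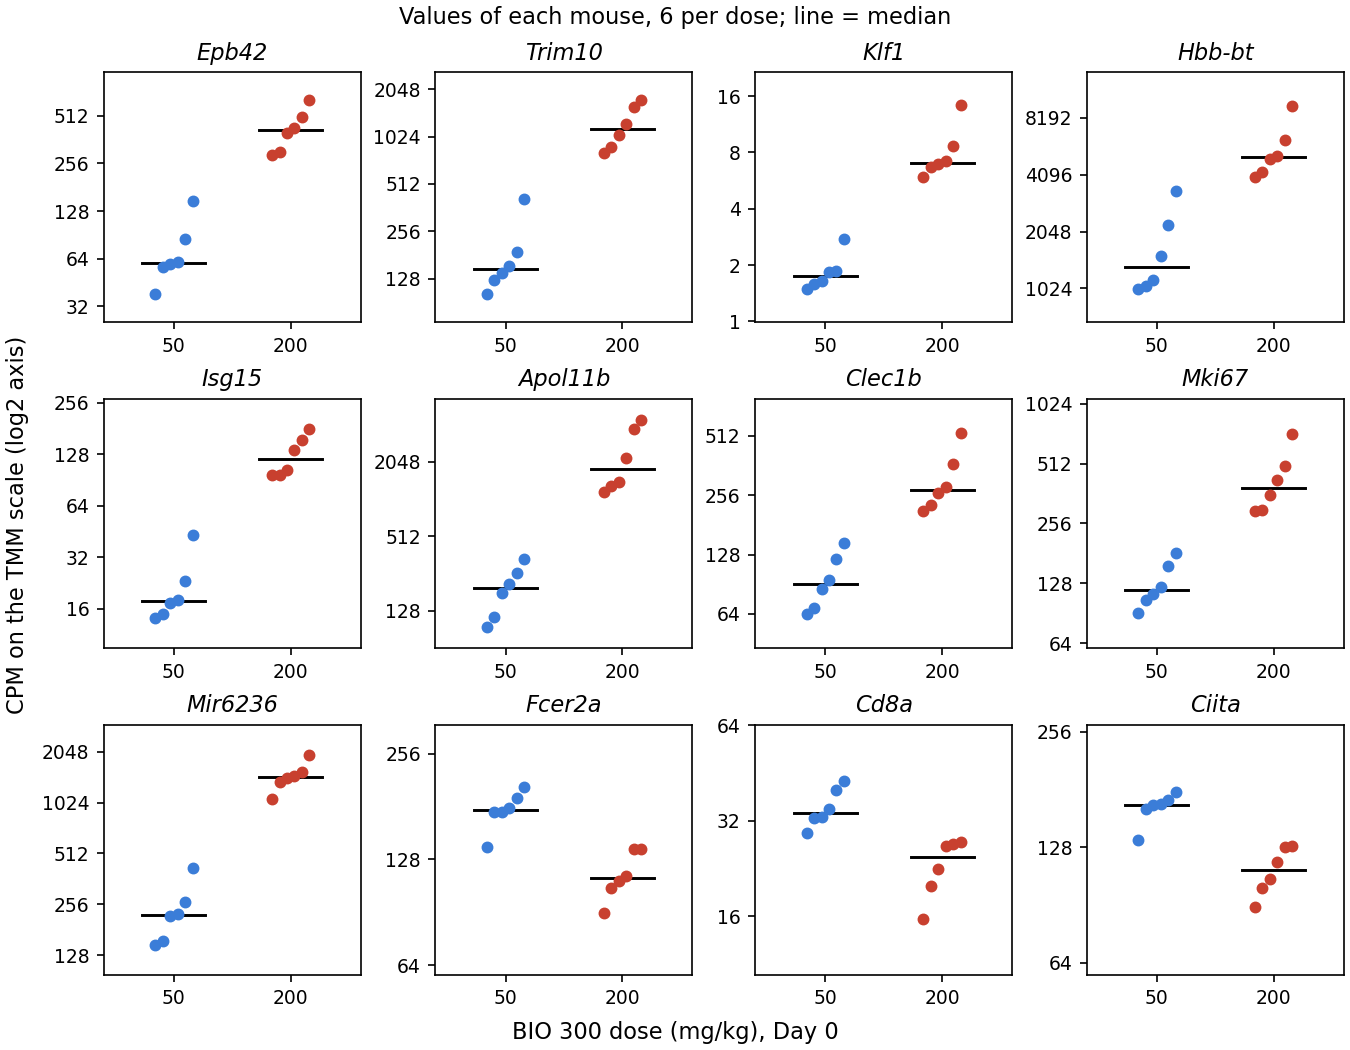
CPM on the TMM scale (log2 axis) of 12 genes, with 1 point per mouse (6 at each dose, ordered by value) and a line at the median. The doses are separate in all 12 panels, with 200 mg/kg higher in 9 genes and lower in Fcer2a, Cd8a and Ciita.

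Interferon-stimulated genes were divided rather than moving as a block. Of 20, 6 were DEGs higher at 200 mg/kg, against 8.25% of all genes, and the list's median log2 fold change was 0.40. The 6 were Isg15 at 2.56, Rsad2 at 2.30, Oas3 at 2.09, Ifit1 at 1.52, Irf7 at 1.37 and Xaf1 at 1.27, of which Rsad2 and Irf7 were named after their values were seen. The other 14 ran from -0.21 (Stat2) to 0.82 (Ifit2), which were also named after their values were seen. Under total counts the median was -0.51, with 3 DEGs higher and 2 lower, against 1.63% and 42.3% of all genes. Usp18, at 0.73 with TMM, was -0.20 under total counts. The sign of the list's median therefore turned with the scaling. Isg15, Oas3 and Rsad2 remained DEGs, while Ifit1 kept its sign but not its call. Isg15 (ENSMUSG00000035692, chromosome 4, 156199424 to 156200818) encodes a ubiquitin-like modifier. It lay between 14.1 and 43.3 CPM (median 17.8) at 50 mg/kg and between 96.8 and 181 CPM (median 120) at 200 mg/kg. No mouse of one dose came near the other, and the SE was 0.28 (adjusted p = 0.00028), with 1.64 under total counts. Oas3, a sensor of double-stranded RNA, had 23.5 to 61.1 CPM (median 37.6) and 132 to 202 CPM (median 174), and 1.18 under total counts. Ifit1 had 9.44 to 15.7 CPM (median 12.2) and 25.5 to 41.4 CPM (median 34.2), but 0.59 under total counts. Usp18, which removes ISG15 from proteins, was tightly grouped, at 11.4 to 13.4 CPM and 18.2 to 22.1 CPM.

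The Apol11 genes had the widest differences among the 12 named higher DEGs. These are apolipoprotein L family members whose role in blood is not well known. Apol11b (ENSMUSG00000091694, chromosome 15, 77633946 to 77643286) ran from 95.7 to 339 CPM (median 195) at 50 mg/kg and from 1180 to 4440 CPM (median 1800) at 200 mg/kg. Every high-dose mouse was above every low-dose mouse, and the log2 fold change was 3.58 (SE 0.44, adjusted p = 0.00028), with 2.60 under total counts. Apol11a (ENSMUSG00000091650, chromosome 15, 77508271 to 77518051) ran from 0.294 to 3.4 CPM (median 1.05) and from 5.2 to 88.3 CPM (median 8.57), a log2 fold change of 4.37 (SE 0.89, adjusted p = 0.00262). The promoters of both were identical at 250 of 250 positions, so the printed Apol11b promoter stands for both, and reads may be split between the genes.

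Platelet genes were higher as a group on the TMM scale. Of 16 tested 15 were DEGs, against 8.25% of all genes called higher, and the median log2 fold change was 1.42. All 16 were higher by adjusted p, against 14.5% of all genes. Under total counts the median was 0.44, and 8 were higher by adjusted p with 0 DEGs, where 1.63% of all genes were called higher. Clec1b, the podoplanin receptor CLEC-2, ran from 64.3 to 147 CPM (median 90.6) and from 212 to 526 CPM (median 272), a log2 fold change of 1.69 (SE 0.26, adjusted p = 0.00047) and 0.72 under total counts. Its doses did not overlap. Gp9 and Gp1bb, subunits of the von Willebrand factor receptor, had log2 fold changes of 1.69 and 1.59, and Mmrn1, multimerin of platelet granules, 1.44. As percent of counts, the list took 0.337% to 0.609% in low-dose mice and 0.488% to 0.757% in high-dose mice, which overlapped. Of 7 endothelial genes tested 3 were DEGs, Kdr at 1.15, Tie1 at 1.41 and Esam at 1.32, against 8.25% of all genes, and the list's median was 0.60. Under total counts 0 were DEGs and the median was -0.37, so its sign turned with the scaling, and Kdr fell short of the fold threshold without animal 22 (0.97). All 3 are expressed by endothelium, while Cdh5, the defining cadherin of endothelium, was at most 1.18 CPM in any mouse.

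Cell cycle genes were higher in part. Of 20 tested 11 were DEGs, against 8.25% of all genes, with a median log2 fold change of 1.21. Under total counts the median was 0.21, with 1 DEG higher and 2 lower, against 1.63% and 42.3% of all genes. Mki67, the marker of cycling cells, ran from 90.5 to 181 CPM (median 118) and from 294 to 724 CPM (median 388), a log2 fold change of 1.75 (SE 0.24, adjusted p = 0.00032). Ccna2, or cyclin A2, rose by 2.05 and was the list's 1 higher DEG under total counts, at 1.08. Top2a, the DNA topoisomerase of dividing cells, had 1.68 and Tyms, which makes thymidylate, 1.31. Of 61 histone genes 10 were DEGs higher with TMM, against 8.25% of all genes, and the median was 0.40. The direction turned under total counts, where 1 was a DEG higher and 13 were lower with a median of -0.56. That lower share was below the 42.3% of all genes. Hist1h2bc was at 1.67 with TMM and 0.72 under total counts, and Hist1h1c at 1.04 and 0.07. Without animal 22 the TMM value of Hist1h1c was 0.88, short of the fold threshold.

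Of 15 antioxidant genes 7 were DEGs, against 8.25% of all genes, with a median of 0.88. Under total counts 3 were DEGs, against 1.63% of all genes called higher, and the median was -0.09. Nqo1, a quinone reductase, ran from 2.06 to 7.83 CPM (median 2.86) and from 12.3 to 30 CPM (median 18.6), a log2 fold change of 2.35 (SE 0.33, adjusted p = 0.00033), with 1.41 under total counts. Prdx2, the peroxiredoxin that is plentiful in red cells, rose by 2.32 from a median of 338 to 1810 CPM, and by 1.37 under total counts. Gclm, the modifier subunit of glutathione synthesis, had 1.86 with TMM and 0.90 under total counts. Sod2, the mitochondrial superoxide dismutase, had 1.14, and 0.98 without animal 22.

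Genes of protein and energy production were mixed. Nuclear genes of oxidative phosphorylation included 18 DEGs among 93, all higher, against 8.25% of all genes, and the median was 0.23. Under total counts 2 were DEGs higher and 26 lower, a share below the 42.3% of all genes lower, with a median of -0.72. Cox7b and Uqcrh, subunits of complexes IV and III, had 1.40 and 1.38 with TMM and 0.42 each under total counts. Of 87 cytosolic ribosomal genes 2 were DEGs, a share below that of all genes, Rpl41 at 1.67 and Rplp0 at 1.29, while 18 were lower by adjusted p and the median was -0.13. Total counts gave 0 higher and 48 lower among them, against 42.3% of all genes lower (median -1.06). Among 38 proteasome genes 2 were DEGs, also below the share of all genes, with Psmd4 at 1.64. For these, total counts gave 0 higher and 19 lower, against the same 42.3%. The 11 mitochondrially encoded protein genes had a median of 0.55 (-0.38 under total counts) and 1 DEG, close to the 8.25% of all genes. That gene was mt-Co1, at 1.22, whose doses overlapped and which was 0.24 under total counts.

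Lymphocyte genes lay on the other side by less than 2-fold. All 12 B cell genes were lower at 200 mg/kg by adjusted p, against 13.9% of all genes, with a median log2 fold change of -0.58, and 0 were DEGs. Under total counts all 12 were lower DEGs, against 42.3% of all genes (median -1.46). Fcer2a, or CD23 of mature B cells, ran from 139 to 206 CPM (median 177) at 50 mg/kg and from 90.2 to 137 CPM (median 113) at 200 mg/kg. The highest high-dose mouse was just under the lowest low-dose mouse, and the log2 fold change was -0.62 (SE 0.12, adjusted p = 0.00174). Cd22, an inhibitory B cell receptor, had -0.55 and Blk, a B cell kinase, -0.57, neither with overlap, whereas Ighd, the IgD heavy chain, had -0.66 with overlap. Of 249 immunoglobulin variable genes 7 were lower DEGs (0.315% of all genes) and the median was -0.47. Under total counts 201 of them were lower DEGs, against 42.3% of all genes, with a median of -1.35. Ighv1-69 was 1 of them, at -1.20, from a median of 1.22 to 0.503 CPM.

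T cell and MHC class II genes resembled the B cell list in direction. Of 13 T cell genes 12 were lower by adjusted p, against 13.9% of all genes, with a median of -0.41 and 0 DEGs. Cd8a, the CD8 coreceptor, ran from 29.2 to 42.8 CPM (median 33.9) and from 15.7 to 27.4 CPM (median 24.6), a log2 fold change of -0.61 (SE 0.14, adjusted p = 0.00449) without overlap. Its partner Cd8b1 had -0.67 and the T cell factor Tcf7 -0.53, both with overlap. All 10 MHC class II genes were lower by adjusted p, against the same 13.9%, with a median of -0.54 and 0 DEGs. Ciita, the switch that turns these genes on, ran from 134 to 178 CPM (median 166) and from 89.3 to 129 CPM (median 112), a log2 fold change of -0.54 without overlap. H2-Ab1, which presents antigen, had -0.56. Under total counts all 13 T cell and all 10 MHC class II genes were lower DEGs, against 42.3% of all genes.

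Neutrophil, monocyte and NK cell genes lay near the middle of all genes. Under total counts, where that middle was -0.98, 7 of 14, 8 of 12 and 1 of 10 were lower DEGs, against 42.3% of all genes. The 14 neutrophil genes had a median of -0.06, and S100a8 (0.54) and S100a9 (0.44), the calprotectin subunits, were higher by adjusted p but -0.44 and -0.54 under total counts. Camp, the cathelicidin of young neutrophils, was a DEG at -1.71 from a median of 0.528 to 0.214 CPM, a call lost in 6 of 12 fits without 1 mouse. The 12 monocyte genes had a median of -0.16 with 0 past adjusted p 0.05, and Csf1r, the receptor of macrophage growth factor, had -0.26 (adjusted p = 0.162). The 10 NK cell genes had a median of 0.19, also with 0 past it, and Gzma, or granzyme A, was 0.50 with TMM and -0.38 under total counts.

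**Figure D4:**
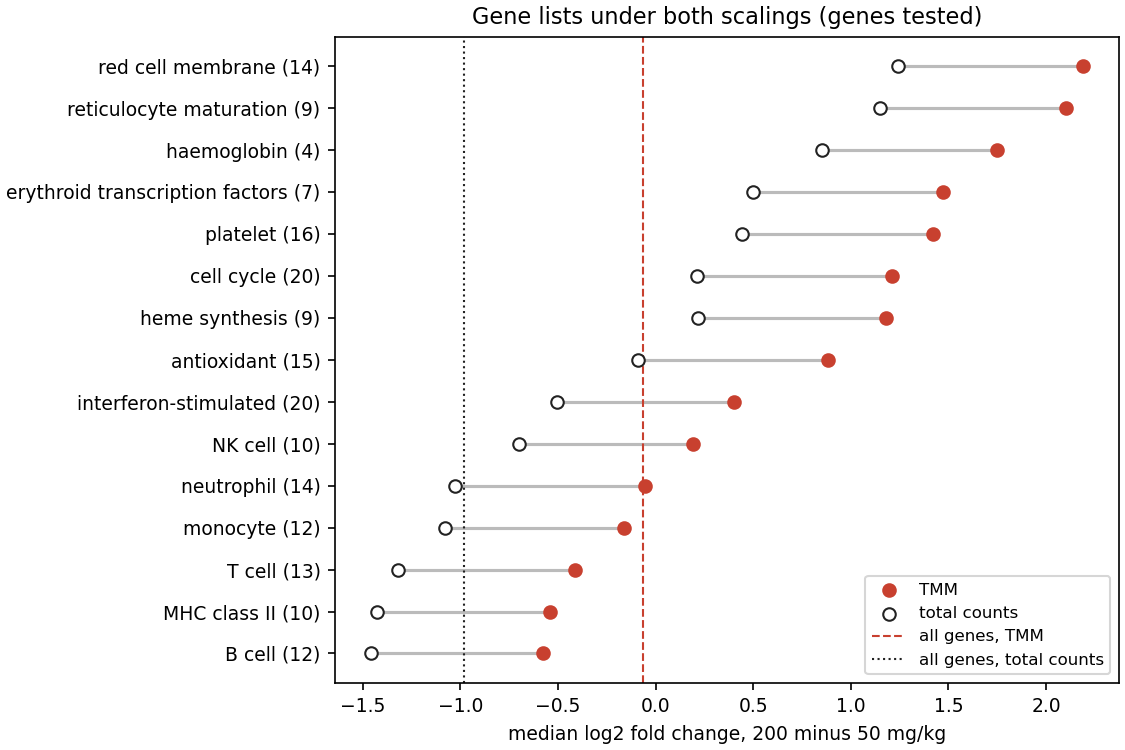
Median log2 fold change (200 minus 50 mg/kg) of 15 gene lists, with the genes tested in parentheses, under TMM (filled) and total counts (open), and lines at the medians of all genes, -0.07 and -0.98. Of these 15, the red cell membrane and reticulocyte maturation lists lie farthest right and the B cell, MHC class II and T cell lists farthest left under both scalings.

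The genes lower at 200 mg/kg with the smallest p had small and uniform differences. None of the 10 named by that rule was a DEG with TMM, and under total counts all 10 were lower DEGs. Pes1, which acts in ribosome assembly, ran from 23.8 to 26.6 CPM (median 25.2) and from 15.5 to 19.7 CPM (median 17.9), a log2 fold change of -0.50 (SE 0.06, adjusted p = 0.00028). Its mice clustered closely within each dose. Utp15, of the same process, had -0.43, Dus3l, a tRNA dihydrouridine synthase, -0.54, Cdk4, the cyclin-dependent kinase of G1, -0.46, and Tlr1, a receptor for bacterial lipopeptides, -0.51. The other 5, Neu1, Snapin, Shprh, Supt20 and Ndor1, lay between -0.51 and -0.39. Immediate early genes included 4 of 15 lower by adjusted p, against 13.9% of all genes, with Myc at -0.45, Btg2 at -0.29 and Zfp36 at -0.27. Under total counts 10 of these 15 were lower DEGs, against 42.3% of all genes. Among lower DEGs chosen after their values were seen, Crisp3, a secretory protein of granulocytes and glands, had -1.02, from 2.16 to 1.06 CPM in the mean, a call lost in 4 of 12 fits without 1 mouse.

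Several noncoding RNAs were among the largest differences. Gm25732, annotated as a 60-base miRNA gene (ENSMUSG00000092909, chromosome 4, 139338206 to 139338265), ran from 1.99 to 7.13 CPM (median 3.8) and from 24.8 to 49.4 CPM (median 31), a log2 fold change of 2.94. Gm24105, annotated as a miscellaneous RNA, had 2.94 as well. Gm15564, annotated antisense on chromosome 16, ran from 13.3 to 48.4 CPM (median 22.4) and from 128 to 258 CPM (median 156), a log2 fold change of 2.76, and reads of an overlapping partner cannot be set aside since the strand setting of the counting is not given. Each was a DEG under total counts too. Mir6236 (ENSMUSG00000098973, chromosome 9, 110281287 to 110281409) ran from 147 to 420 CPM (median 220) and from 1080 to 1970 CPM (median 1460), a log2 fold change of 2.63 (SE 0.26, adjusted p = 0.00028). These reads fell on its 123-base gene and do not measure the mature miRNA. Mir6240 had 2.42 and Mir8116 1.61. Whether reads on Mir6236 and Mir6240 came from ribosomal RNA left in the libraries was not tested. Of 284 miRNA genes of the Mir series tested, 9 were DEGs higher, a share below the 8.25% of all genes, and 2 were lower. Under total counts 5 were higher, Mir8116 (0.68) not among them, and 92 lower, a share below the 42.3% of all genes. The mature products of the former pair, from RefSeq (GRCm38.p6), are shown with the seed, bases 2 to 8, in capitals and do not share it.
Mir6236, mmu-miR-6236, chr9:110281353-110281371, plus strand: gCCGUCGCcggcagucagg
Mir6240, mmu-miR-6240, chr5:114851973-114851998, plus strand: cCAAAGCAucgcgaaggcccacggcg

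Reads counted on Lars2, the gene of the mitochondrial leucyl-tRNA synthetase, ran from 508 to 2000 CPM (median 738) and from 3920 to 8890 CPM (median 5260). The log2 fold change was 2.65 (1.74 under total counts). Where in the gene these reads fell, and whether they came from its messenger RNA, was not tested. Of 10 structural RNA genes 5 were DEGs higher, against 8.25% of all genes (median 1.03). Rn7s2, of the signal recognition particle, was at 2.22 and Rny1, a Y RNA, at 2.17. Under total counts 2 of the 10 were higher and 1 lower, against 1.63% and 42.3% of all genes. Gm26917 and Gm42418 lie side by side on chromosome 17 (39843013 to 39846341 and 39846958 to 39848788) and were among the most counted. Whether their reads came from ribosomal RNA was not tested either. Gm26917 took 4.83% ± 1.93 of counts at 200 mg/kg and 10.9% ± 2.49 at 50 mg/kg (exact permutation p = 0.00433, adjusted p = 0.00909), with overlap, yet on the TMM scale it had -0.28 (adjusted p = 0.834), and under total counts -1.17 (adjusted p = 0.0011). Gm42418 was a DEG without overlap, at 12300 to 22400 CPM and 32700 to 58200 CPM (adjusted p = 0.041, 0.56 on the log2 scale under total counts), a call lost in 8 of 12 fits without 1 mouse.

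Genes of the estrogen and aryl hydrocarbon receptor pathways, which isoflavones can engage, gave calls that depended on the scaling. Of 10 estrogen receptor pathway genes tested 0 were DEGs with TMM and 5 were lower DEGs under total counts, against 42.3% of all genes. Their TMM median was -0.02, and 2 were lower by adjusted p, among them the coactivator Ncoa3 at -0.39. Esr1, or estrogen receptor alpha, ran from 2.86 to 3.98 CPM and from 2.29 to 4.49 CPM, with a log2 fold change of -0.13 (SE 0.16, adjusted p = 0.613), and -1.05 under total counts. Esr2, the receptor beta to which genistein binds more tightly, had at most 3 counts in any of the 12 mice and was not tested, so a difference was not detectable at this depth. Of 6 genes of the aryl hydrocarbon receptor pathway 0 were DEGs with TMM and 1 was lower by adjusted p, and 4 were lower DEGs under total counts. Of 12 p53 targets 1 was a DEG, against 8.57% of all genes, and total counts gave 0 higher and 4 lower. Of 16 hepatocyte genes 0 were DEGs, and Alb, or albumin, was at 596 CPM in animal 1 and 1240 CPM in animal 21, at 36.9 CPM in animal 5 and under 0.1 CPM in the other 9. Of 8 adipocyte genes 0 were DEGs, and Fabp4 was at 39.6 and 28 CPM in animals 20 and 22 and at most 5.92 CPM elsewhere, with a log2 fold change of 2.22 (adjusted p = 0.058).

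Leaving out libraries that stood apart lowered the counts, and higher DEGs outnumbered lower ones each time. Without animals 1 and 21, which carried the hepatocyte genes, 1902 DEGs were called, 1848 higher and 54 lower. Leaving out animals 4, 20 and 22, with the most adipocyte counts, gave 1452, of which 1398 were higher and 54 lower. Without animals 2 and 22 there were 1835, of which 1787 were higher and 48 lower. The part of these libraries' other features in the values was not tested.

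The other Day 0 comparisons share these mice with the one above, so their values are given side by side only. Against vehicle, 50 mg/kg had 1103 DEGs (4.5%), 31 higher (0.127%) and 1072 lower (4.38%), by edgeR with TMM, but 2563 higher and 307 lower under total counts, so its direction turned with the scaling. The 200 mg/kg mice against vehicle had 0 DEGs by edgeR, with 2145 genes at an unadjusted p under 0.05 and 2 DEGs by DESeq2. The 200 against 100 mg/kg comparison had 0 by edgeR and 0 by DESeq2, with 1197 genes at an unadjusted p under 0.05. The 100 against 50 mg/kg comparison had 0 by edgeR, with 5455 at an unadjusted p under 0.05 and a smallest adjusted p of 0.0544, but 1148 by DESeq2. The spread among mice was least at 50 mg/kg, with a biological coefficient of variation of 0.262, against 0.374 at 200 mg/kg, 0.418 at 100 mg/kg and 0.559 in vehicle.

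Epb42 medians on the scale of all 24 Day 0 mice were 56.3 CPM at 50 mg/kg, 256 at 100 mg/kg, 253 in vehicle and 386 at 200 mg/kg. Its log2 fold change was -1.84 for 50 mg/kg against vehicle (SE 0.31, adjusted p = 0.00287) and 0.65 for 200 mg/kg against vehicle (SE 0.24, adjusted p = 0.546). The range at 100 mg/kg, 116 to 343 CPM, overlapped those of 50 mg/kg (36.4 to 141), vehicle (153 to 361) and 200 mg/kg (271 to 590). Vehicle and 200 mg/kg overlapped too. Isg15 medians were 16.7 CPM at 50 mg/kg, 61.1 in vehicle, 66.5 at 100 mg/kg and 111 at 200 mg/kg, with -1.72 (adjusted p = 0.00255) and 0.81 (adjusted p = 0.546) against vehicle. For Apol11b the corresponding values were -2.12 (adjusted p = 0.00493) and 1.44 (adjusted p = 0.546). Mir6236 had -2.26 (adjusted p = 0.00255) and 0.36 (adjusted p = 0.617). In the opposite order, Fcer2a medians were 169 CPM at 50 mg/kg, 129 in vehicle, 122 at 100 mg/kg and 106 at 200 mg/kg. For these 5 genes the medians of vehicle and 100 mg/kg lay between those of both doses compared here. These genes were named for differences between 200 and 50 mg/kg, which favours that order. It did not hold in every named gene, as S100a8 medians were 92.5 CPM in vehicle and 84.8 CPM at 200 mg/kg.

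**Figure D5:**
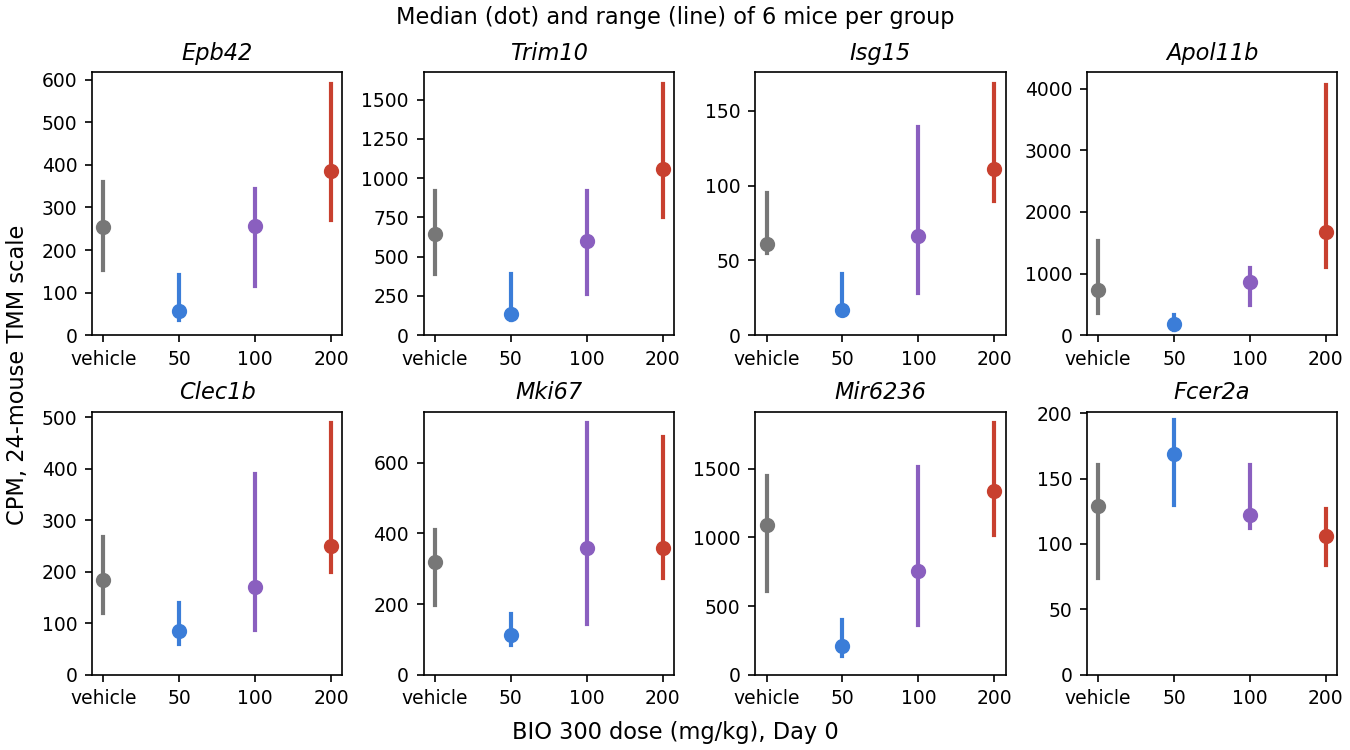
Median (dot) and range (line) over 6 mice per Day 0 group of 8 genes, as CPM on the TMM scale of all 24 mice. The 50 mg/kg mice had the lowest median of the 4 groups in 7 genes and the highest in Fcer2a.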

How the data were processed

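RNA from whole blood of 60 mice was sequenced on an Illumina NextSeq 500. Per the submitters' notes, the authors used Trimmomatic 0.36 for trimming, STAR 2.5.2b for alignment to GRCm38 and Subread 1.5.2 for counting unique hits, and the deposited tables hold these raw counts of 49315 genes, not normalized. The annotation release and strand setting of the counting are not given in the sources used here. The labels name polyA selection, whereas the study's methods describe stranded total RNA depleted of ribosomal and globin RNA, which bears on the globin and noncoding RNA values. The authors' tables of DESeq2 fold changes, p-values and normalized values were not used.

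Counts of both doses were joined by gene ID. Genes with at least 10 counts over the 12 mice were fitted with edgeR 4.0.16 (TMM, glmQLFit, glmQLFTest) in R 4.3.3, and DESeq2 1.42.0 was the second tool. Adjusted p (Benjamini-Hochberg) below 0.05 and a log2 fold change beyond 1 in size, the study's thresholds, defined a DEG. An SE is the log2 fold change divided by the square root of its F statistic. CPM use TMM library sizes. Shares of counts were compared with 2-sided exact permutation tests. Each mouse is a separate animal.

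Named genes were the 12 higher DEGs that changed most and did not overlap, averaging 10 CPM or more at either dose, the 10 lower genes with the smallest p at that level (no lower DEG met the rule), up to 4 members of each of 46 lists by smallest p, 9 fixed genes and the 10 most counted genes. A few genes that the rule names are not reported here. The comparison, lists and genes were chosen with earlier results of these data known. The edgeR fit was tested on simulated counts with 200 genes changed, and DESeq2 was not tested in this way. Gene annotation came from GENCODE, and promoter and miRNA sequences from RefSeq. Alternatives were other scalings, filters, tools and fits leaving out mice.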

Additional observations from a re-analysis of the deposited data

Results flagged for a closer look

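A sample was singled out where its gap to the nearest mouse of its dose, divided by the range of the 6, exceeded Dixon's critical value of 0.625. Of 232 groups of 6 values tested 52 did so, where chance gives about 1 in 20, but the values share mice and genes of one cell type move together, so they are not separate findings. Animal 2 accounted for 26 and animal 22 for 19.

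At 50 mg/kg, animal 2 was the highest in the following red cell, antioxidant and abundant genes, with CPM values in parentheses: Add2 (47.5), Alas2 (33600), Car2 (560), Ctsf (28.5), Fbxo7 (94.4), Gclm (314), Hba-a1 (2310), Hba-a2 (818), Klf1 (2.77), Lmo2 (177), Prdx2 (806), Rhd (15), Slc25a37 (8800), Trim10 (410), Ucp2 (11800) and Urod (153). It was also the highest in Ccna2 (34.8), Gm24105 (5.72), Gm42418 (22400), Gm867 (7.01), Isg15 (43.3), Lars2 (2000), Psmd4 (75.7), Ube2l6 (9460) and Uqcrh (51.6). In Cd8b1 it was the lowest, at 27.1 CPM. The TMM factor of animal 2, 1.09, was the lowest of its dose, and its haemoglobin share, 11.1%, was the highest. Among the genes in which it was the highest, Hba-a1 and Hba-a2 alone put it within the range of the high-dose mice.

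At 200 mg/kg, animal 22 was the highest in red cell, platelet and endothelial genes: Esam (74.3), Gata1 (95.7), Gfi1b (26.8), Hbb-bs (275000), Klf1 (14.3), Mmrn1 (737), Tal1 (170) and Tie1 (17.2). It was also the highest in Ccna2 (150), Col5a1 (5.62), Gm24105 (36.1), Hist1h2bc (330), Rn7s2 (38.5), Rpl41 (2340), Rplp0 (1990), Sod2 (112), Top2a (163) and Ube2l6 (36100), and in the haemoglobin share, at 13.8% of counts. Its TMM factor, 0.475, was the lowest of all 12 mice, so its CPM values are raised the most by the scaling. The part of the scaling in the values of both mice was not tested.

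Tissue markers set other mice apart. Alb was at 596 CPM in animal 1 at 50 mg/kg and 1240 CPM in animal 21 at 200 mg/kg, and all hepatocyte markers together took 0.232% and 0.221% of their counts. Animal 1 also had the highest Camp of its dose, at 2.29 CPM. Animal 4 had the highest Fabp4 at 50 mg/kg, at 5.92 CPM, and the most adipocyte counts, 0.00291%.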

How the results depend on the processing

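Scaling was the choice that mattered most. With total counts in place of TMM, 10599 DEGs were called between 200 and 50 mg/kg, 394 higher and 10205 lower, and between 50 mg/kg and vehicle 2870, of which 2563 were higher and 307 lower, where TMM gave 31 and 1072. The scarce lower DEGs numbered 39 with DESeq2, 12 with edgeR's filterByExpr and 48 without animals 2 and 22, an alternative chosen after seeing the data. Between 100 and 50 mg/kg, DESeq2 called 1148 and filterByExpr 737 where the fit as reported called 0, and between 200 mg/kg and vehicle DESeq2 called 2. Leaving out 1 mouse at a time gave 1614 to 2270 DEGs in all, 1549 to 2172 higher and 54 to 102 lower. Of 104 single genes followed under every setting, 75 were DEGs. Total counts removed 39 of these calls, added 22 and changed 5 signs, those of Usp18 (-0.20), S100a8 (-0.44), S100a9 (-0.54), Gzma (-0.38) and Alb (-0.20). DESeq2 removed 1, added 2 and changed 0 signs. Alb ranged from -12.01 without replicate 21 to 4.76 without replicate 1, against 0.96 as reported. The mitochondrial share differed by 0.0185 percentage points once haemoglobin genes were removed, and by -0.0519 (without animals 4, 20 and 22) to 0.0149 when mice were left out, against -0.00777 as reported. The cause of these shifts was not tested. No paired analysis was possible because animal numbers are not shared between the groups. Depth limits what can be seen of transcripts such as Esr2, and most lower DEGs are scarce. With 6 mice per dose and no batch labels, dose and group handling cannot be told apart, and the make-up of blood was not measured.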

Other observations

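Several other gene lists had medians close to that of all genes, -0.07, on the TMM scale. Of 15 immediate early, 12 inflammatory, 11 heat shock, 9 glucocorticoid-responsive and 14 circadian genes, 0 were DEGs in each list, with medians of -0.21, 0.07, 0.11, 0.02 and -0.20. By adjusted p, 4 of the immediate early and 5 of the circadian genes were lower, against 13.9% of all genes, and 0 were higher in either list. Under total counts 10, 4, 3, 3 and 10 genes of these 5 lists were lower DEGs, against 42.3% of all genes. The 337 zinc finger genes had a median of -0.26, with 5 DEGs higher (8.25% of all genes) and 142 lower by adjusted p, against 13.9% of all genes. T cell receptor variable genes had a median of -0.38 over 97, with 0 DEGs and 6 lower by adjusted p, a share below the 13.9% of all genes. Of 37 collagen genes 1 was a DEG, a share below the 8.25% of all genes higher. That gene was Col5a1, at 1.95 from a median of 0.796 to 2.76 CPM, and at 0.96 under total counts, short of the fold threshold. Of 75 mitochondrial ribosomal genes 0 were DEGs and 29 were lower by adjusted p, against 13.9% of all genes, with a median of -0.22. Of 76 small nucleolar and Cajal body RNA genes 1 was a DEG, on the lower side, and the median was -0.07.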
